A study of Homo sapiens with 2 samples.

Results

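Olfactory receptor (OR) genes of chromosome 11 were taken as the annotated protein-coding genes whose symbol consists of OR, a family number, subfamily letters and a member number. The rule found 171 genes among the 20163 protein-coding genes of chromosomes 1 to 22, X and Y. A further 1146 protein-coding genes lie on chromosome 11, and 228 OR genes lie on other chromosomes. Each gene was described over its locus, meaning the gene span with 5 kb on either side, and over those CpGs that were read at least once in each library.

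The libraries are whole-genome bisulfite sequencing (WGBS) of HEK293T, an established human embryonic kidney cell line. Bisulfite turns unmethylated cytosine into a base that is read as T, so the share of C among C and T reads at a CpG is its methylation level. There were 2 groups of 1 library each, and 1 of them, Neg, is titled as the negative control, which the study describes as cells without the constructs. The other, dCas9+3A+HOXA5, came from fluorescence-sorted cells that carried lentiviral dCas9-SunTag, an scFv antibody fragment fused to DNMT3A1, and a guide RNA to HOXA5. Both samples have the same treatment note, with a time of 30 days, and were told apart by their titles.

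OR genes encode G protein-coupled receptors of the nasal epithelium, where a sensory neuron uses a single allele of a single OR gene and keeps the others silent. They sit in clusters, most have their whole coding sequence in 1 exon, and they are divided into class I, also called fish-like, and class II receptors. Gene clusters without activity in a cell type can lose CpG methylation as part of large partially methylated stretches, and DNMT3A, the enzyme carried by the construct, adds methyl groups to unmethylated CpGs. RNA of these cells was not analysed here, so no statement is made on OR expression.

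The loci were poor in CpGs and thinly covered. They held 6.28 CpGs per kb and a GC content of 37.7%, against 9.90 CpGs per kb and 41.6% in the rest of chromosome 11. In the 250 bp before the annotated start, the median OR gene had 1 CpG, and 33.9% of the OR genes had 0 (58 genes), against 3.80% of all protein-coding genes. At least 5 CpGs stood there in 4.09% of the OR genes and in 74.99% of all genes. The median OR gene span was 1.07 kb and the median coding sequence 942 bases. The annotated start of many OR genes is thus near their coding start, and may not be the same kind of position as in other genes. Of 15273 reference CpGs in the loci, 74.2% had a read in Neg, 48.3% had a read in dCas9+3A+HOXA5 and 40.9% (6250 CpGs) had a read in both, while the rest of chromosome 11 reached 55.5%. The median depth at the shared CpGs was 3 reads for Neg and 2 for dCas9+3A+HOXA5, and only 224 of them had 5 or more reads in both. A locus held 6 to 552 shared CpGs (median 29), with a median of 92 reads for Neg and 79 for dCas9+3A+HOXA5.

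A sequence is shown for OR52D1, the largest gain from a level near 0, to make the CpG content and the read support of such a locus visible. Only 200-bp stretches that begin just before a shared CpG and touch no annotated untranslated region were considered. Among these it has the most shared CpGs, with ties decided by the number of reads. It lies in the coding exon at chr11:5510386-5510585 on the plus strand of GRCh37, has every CpG in capitals, and was chosen after the values were seen.
OR52D1: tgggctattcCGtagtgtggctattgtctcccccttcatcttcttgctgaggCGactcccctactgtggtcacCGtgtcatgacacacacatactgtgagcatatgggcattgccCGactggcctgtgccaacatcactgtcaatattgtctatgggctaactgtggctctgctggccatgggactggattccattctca

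The stretch holds 4 CpGs, all of which had 0 methylated reads in Neg, of 1, 3, 2 and 1 reads in their order along the sequence. In dCas9+3A+HOXA5 the methylated reads at the same CpGs were 0 of 2, 3 of 5, 4 of 6 and 1 of 6.

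The first comparison asked how much of the loci was methylated in each library. The OR loci of chromosome 11 were low in both libraries, and their mean methylation level was 23.7% for Neg and 22.8% for dCas9+3A+HOXA5, with an SD across CpGs of 35.8 and 39.5, while the rest of chromosome 11 went from 60.9% to 66.0%. In Neg 4897 of 19926 reads were methylated, or 24.6% with a 95% Wilson interval of 24.0 to 25.2%. In dCas9+3A+HOXA5 these were 3756 of 16233 reads, or 23.1% (22.5 to 23.8%). From Neg to dCas9+3A+HOXA5 the read share thus decreased by 1.44 percentage points (Fisher's exact test, two-sided, p = 0.00145), whereas in the rest of the chromosome it was 4.37 points higher. These changes differed by -5.80 points (95% normal interval -6.69 to -4.92). All tests here compare 2 libraries and not the conditions, neighbouring CpGs are often read on 1 fragment and so are not independent, and intervals cover counting error only. The small change within the OR loci depended on their extent, since with 1 kb or 20 kb in place of 5 kb the mean level was 0.20 or 0.19 points higher in dCas9+3A+HOXA5 while the read share differed by -0.47 or -0.59 points (p = 0.421 and 0.0771 by Fisher's exact test on the reads). With each CpG as a stratum, the Cochran-Mantel-Haenszel test, which is not exact, gave p = 0.109.

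By locus, the median level was 14.5% in Neg (quartiles 6.28 and 26.8%) and 12.5% in dCas9+3A+HOXA5 (quartiles 5.38 and 25%). Below 20% in Neg stood 109 of the 171 loci (63.7%), against 2.88% of all protein-coding genes, and only 11 stood above 50%. In dCas9+3A+HOXA5 these counts were 120 and 13. The level was higher in dCas9+3A+HOXA5 at 69 loci (40.4%, against 87.3% of all genes), lower at 97 and equal at 5, and the median difference was -1.60 points, with a range from -26.8 to 27.4. Across all genes the median went from 66.3 to 71.3%, with a median difference of 3.89 points. The 95% interval of the difference in read share included 0 at 116 OR loci, lay above 0 at 22 (12.9%, against 53.6% of all loci) and lay below 0 at 33 (19.3%, against 8.84%). It was wider than 20 points at 77, so that a change of a few points was not detectable at this depth in many single loci. No methylated read was found at 8 loci in Neg, at 23 in the shallower dCas9+3A+HOXA5 library and at 4 in both.

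**Figure D1:**
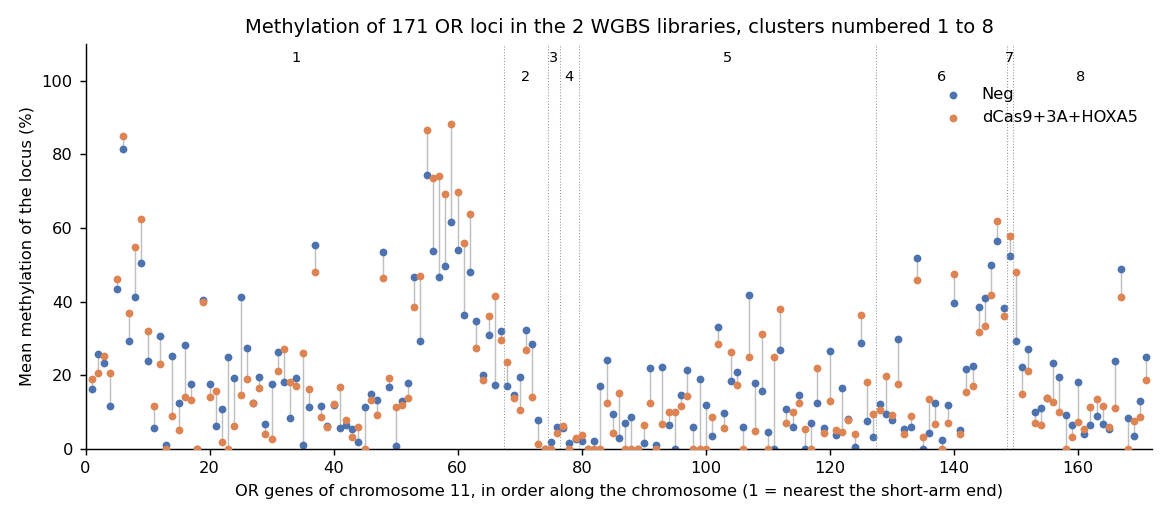
Methylation level (%) of each of the 171 OR loci in chromosomal order, in Neg and in dCas9+3A+HOXA5, with the clusters marked. Most loci lie under 20% in both libraries, and those above 50% are few, 11 in Neg and 13 in dCas9+3A+HOXA5.

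Other genes with as few CpGs were more methylated than the OR loci. Among the tenth of genes with the fewest CpGs per kb, the 142 OR loci had a median level of 12.4% in Neg and 11.6% in dCas9+3A+HOXA5, with a median difference of -1.07 points. The 1739 genes of that same density group other than OR genes had medians of 59.7% and 73.7% and a median difference of 9.50 points. OR genes of other chromosomes stood between them, with a median of 28.3% in Neg, 31.0% in dCas9+3A+HOXA5 and a median difference of 4.13 points over 208 genes. The 69 other genes that lie inside the OR clusters of chromosome 11 had medians of 42.6% and 46.8%. Within the OR loci, the level in Neg was higher where CpGs were denser (Pearson's r = 0.50, Spearman's rho = 0.50, across 171 loci that share both libraries and in part overlap), and the difference between libraries was only weakly related to density (r = -0.15, rho = -0.14). These correlations are across loci, which are not independent replicates.

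**Figure D2:**
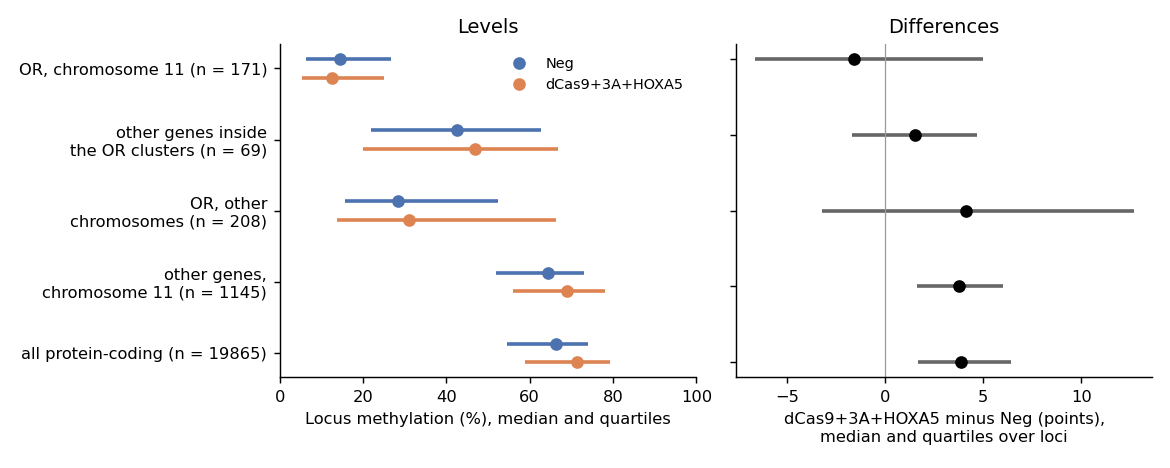
Median (point) and quartiles (line) over genes of the methylation level (%) in each library and of the difference in percentage points (dCas9+3A+HOXA5 minus Neg), for the OR genes of chromosome 11 and the groups set beside them. The median difference is -1.60 points for the OR genes of chromosome 11, 3.79 for other genes of the chromosome and 4.13 for OR genes elsewhere.

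Calls were made on the difference in level (over 20 points) together with Fisher's exact test on reads, with Benjamini-Hochberg adjustment over all 19865 loci (adjusted p under 0.01). Of the OR loci, 5 were called higher in dCas9+3A+HOXA5 (2.92%), against 1.92% of all loci, 8.65% of the OR loci of other chromosomes and 12.9% of the non-OR genes in the group with the fewest CpGs per kb, and 1 was called lower (0.585%), against 0.101% of all loci. With no minimum size, 13 OR loci were called higher (7.60%), well under the 41.0% of all loci and the 59.5% of those CpG-poor non-OR genes, and 10 were called lower (5.85%), against 3.07% of all loci. The OR loci have far fewer reads than the median gene, which had 1532 in Neg, so the same change passed the test less readily in them. At an unadjusted p under 0.05, 21 OR loci were higher (12.3%) and 20 lower (11.7%), against 52.9% and 8.64% of all loci.

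The level of a locus is the mean over its CpGs, so it differs from the share that the read counts in parentheses give. The 5 loci called higher were OR2AG1, OR10A5, OR52D1, OR10A6 and OR2AG2, all in the large cluster near the end of the short arm. OR8K1, in a long-arm cluster, went from 0 (0 of 25 reads) to 25% (4 of 18) over 8 CpGs and was not called (adjusted p = 0.0437, Fisher's exact test). The largest was at OR2AG1 (ENSG00000279486, chromosome 11, 6804251 to 6812789), a receptor gene of family 2. Its level was 46.6% in Neg (99 of 212 reads methylated) and 74.0% in dCas9+3A+HOXA5 (140 of 191), a difference of 27.4 points (adjusted p = 3.39e-07, Fisher's exact test). Its neighbour and closest relative, OR2AG2, with 91.7% identity in the coding sequence, went from 53.7% (105 of 201) to 73.7% (111 of 140). For such similar genes it was not tested whether reads were placed on the right copy. OR10A5, a family 10 receptor, went from 61.7% (60 of 107) to 88.3% (83 of 97), the highest OR level in dCas9+3A+HOXA5. OR10A6 started lower, at 17.2% (10 of 81), and stood at 41.4% (39 of 97). These 4 genes are class II receptors. The fifth, OR52D1, is class I and was close to 0 in Neg, with a level of 1.04%, against 26.1% in dCas9+3A+HOXA5. Its read share was 1.85% in Neg (1 of 54 reads, Wilson interval 0.328 to 9.77%) and 32.1% in dCas9+3A+HOXA5 (18 of 56, 21.4 to 45.2%). Each of the 5 calls was lost under some other extent of the locus. With 20 kb on either side OR2AG1 (14.5 points), OR2AG2 (18.5) and OR10A6 (12.9) still passed the test but stood under the limit of 20 points, and OR52D1 differed by 2.77 points and did not pass. OR10A5 kept its call there, but differed by 0.55 points over the gene span alone, and with 1 kb neither OR10A5 (24.5 points, adjusted p = 0.0155) nor OR52D1 (43.7 points, adjusted p = 0.0872) passed Fisher's exact test. OR10A6, in contrast, differed by 55.01 points over its gene span. Over CpGs with 5 or more reads in each library OR2AG1 differed by 14.5 points and did not pass. The locus of OR52D1 lies inside the span of OR51B5, whose annotation runs over 7 other OR genes, and shares its 24 CpGs with that locus.

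The locus called lower was OR52A1 (5168054 to 5175987), a class I gene, with 41.3% in Neg (75 of 181 reads) and 14.5% in dCas9+3A+HOXA5 (21 of 103; adjusted p = 0.00107, Fisher's exact test). Over the gene span alone the difference was -2.29 points, so that most of it lay in the flanks. Smaller losses that passed the test included OR51B6, from 17.5% (16 of 72) to 2.59% (3 of 81), and OR51G2, from 28.2% (52 of 193) to 14.1% (11 of 121), both of them class I. Among class II genes of the long arm, OR10G7 went from 18.2% (37 of 158) to 7.20% (7 of 155). No methylated read remained at OR4C16, which had 10 of 56 in Neg and 0 of 60 in dCas9+3A+HOXA5, a count of 0 that allows a share of up to 5% if 3 methylated reads are taken as the limit. OR8B4 likewise had 9 of 112 and 0 of 92, which allows up to 3.26% by the same limit. Over the wider locus with 20 kb, OR4C16 differed by -0.43 points and OR51B6 by -7.11, neither past the test, and OR51B6 differed by -5 points over the gene span and by -3.57 with 1 kb. Neither passed the Cochran-Mantel-Haenszel test, which is not exact (adjusted p = 0.0271 for OR4C16 and 0.0285 for OR51B6). OR52E1 went from a mean level of 25% (2 of 24 reads, a share of 8.33%) to 0 (0 of 10) over 8 CpGs and was not called. OR51T1 and OR5D16 had mean differences of -16.5 and -15.3 points but did not pass the test (adjusted p = 0.323 and 0.0956, Fisher's exact test). OR51T1 did pass the Cochran-Mantel-Haenszel test (adjusted p = 0.00181, not exact).

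Loci at either extreme of the Neg level were not called, apart from OR10A5 and OR52D1. OR52I1 was the highest in Neg among loci with at least 20 shared CpGs, at 81.6% (118 of 148 reads), and had 84.9% (136 of 151) in dCas9+3A+HOXA5. OR52W1 had 74.5% and 86.7%, OR4D9 56.4% and 61.9%, and OR52B6 55.3% and 48.0%, none of which passed the test. OR52W1 passed the Cochran-Mantel-Haenszel test (adjusted p = 0.00326, not exact), and OR4D9 passed with 1 kb around the gene (11.8 points, adjusted p = 0.00449, Fisher's exact test). At the low end, OR9G1 had 0.60% (2 of 153 reads) and 4.05% (2 of 94), OR52L1 0.71% (1 of 121) and 11.4% (7 of 92), OR5L1 1.57% (2 of 82) and 6.52% (4 of 68), and OR4A16 2.0% (3 of 92) and 3.75% (3 of 101). OR5M1 was also low in both libraries, with 3.74% in Neg (7 of 122) and 5.08% in dCas9+3A+HOXA5 (7 of 115), a difference in read share with an interval from -5.66 to 6.36 points. Its coding sequence is 97.1% identical to that of OR5M10.

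Clusters were formed from OR genes less than 1 Mb apart, which gave 8 on the chromosome. The largest, from OR52B4 to OR10A3 (67 genes, 4388493 to 7963255), is near the end of the short arm and holds all 55 class I genes of the chromosome. Its OR loci had a mean level of 29.5% in Neg and 30.3% in dCas9+3A+HOXA5, whereas the sequence between them went from 54.3 to 61.3% and the 1 Mb before the cluster from 68.4 to 73.8%. The second largest, from OR4A16 to OR5AK2 on the long arm (48 genes), was lower at 13.1 and 11.7%, and there the sequence between the loci was also low (14.3 and 14.6%), although its read share changed in the other direction than its mean level, by -3.40 points (interval -4.59 to -2.20). The cluster from OR6X1 to OR8A1 (22 genes) went from 17.6% in Neg to 13.9% in dCas9+3A+HOXA5 (difference in read share -4.58 points, interval -6.64 to -2.51), while the 1 Mb before it went from 69.8 to 77.5%. The sequence between its loci fell with them, from 22.1 to 18.7%. Other surrounding sequence was lower as well in both mean level and read share, with intervals of the read share below 0. This held for the sequence between the loci from OR9Q1 to OR10V1 (37.3 to 36.4%, read share -2.82 points, interval -3.95 to -1.68), the 1 Mb after OR10V1 (33.8 to 31.3%), the 1 Mb after OR4C12 (17.9 to 16.1%) and the sequence between the loci from OR4B1 to OR4A47 (12.5 to 9.61%). In the 1 Mb after OR4C46 the read share differed by -5.83 points (-7.25 to -4.42) while the mean level went from 27.4 to 34.96%. This stretch was unusually deep, as its 297 shared CpGs carried 25873 reads for Neg and 4900 for dCas9+3A+HOXA5. The 1 Mb before OR4A5 had 789 shared CpGs with only 2450 and 1813 reads. The read share weights CpGs by depth, so its narrow interval after OR4C46 rests on few CpGs. The reason for this depth was not tested. Between OR9Q1 and OR10V1 (21 genes) the loci had 23.3 and 20.8% (read share -1.80 points, interval -3.71 to 0.11). From OR4B1 to OR4A47 (7 genes) they had 19.0 and 14.6% (-5.95 points, -10.3 to -1.57). Both small clusters nearest the centromere on the short arm were under 5% in each library, at 4.60 and 2.86% for OR4C13 and OR4C12, and at 3.12 and 3.03% for OR4A5, OR4A8 and OR4C46. OR2AT4, which stands alone on the long arm, had 52.4 and 57.7%. For OR2AT4, for the loci of both small clusters and for those of the largest cluster, the interval of the difference in read share included 0.

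**Figure D3:**
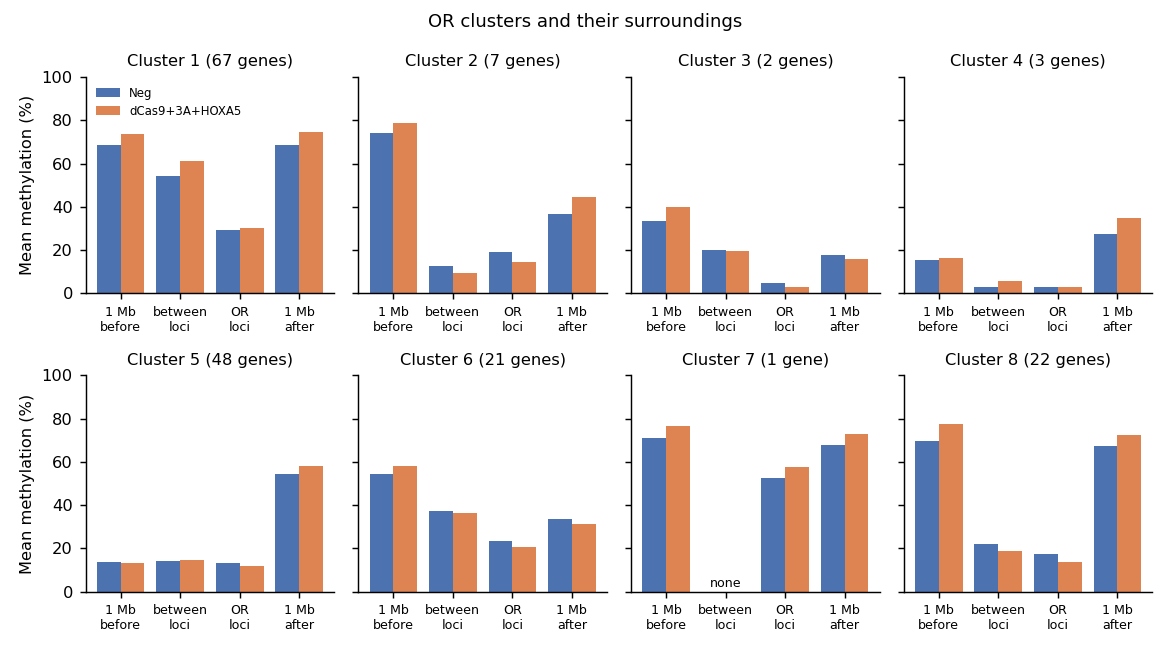
Mean methylation level (%) in Neg and in dCas9+3A+HOXA5 of the OR loci of each of the 8 clusters, of the sequence between them and of the 1 Mb on either side. The OR loci of the first cluster lie at 29.5 and 30.3%, against 54.3 and 61.3% between them, while in the fifth cluster both kinds of sequence lie between 11.7 and 14.6%.

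Over the whole chromosome, class I loci were somewhat more methylated than class II loci in both libraries. In the cluster that holds both, the class II loci were the more methylated. A difference between the changes of the classes, each taken whole, was not detectable at this depth. Class I loci, from families 51, 52 and 56, went from 26.9 to 25.6%, and the 116 class II loci from 21.8 to 21.2%. Their changes in read share differed by -1.64 points, with an interval from -3.50 to 0.23. The class II loci, however, were not alike. The 12 that lie in the same cluster as the class I genes went from 42.4 to 54.0%, with a read share higher by 16.2 points (interval 12.5 to 19.98), and 9 of them were higher and 3 lower. The interval of the difference in read share lay above 0 at 8 of these 12 and below 0 at none (53.6% and 8.84% of all loci), while among the 55 class I loci of the same cluster it lay above 0 at 8 and below 0 at 14. Those 14 include loci such as OR52E8 (4 of 32 and 0 of 24 reads), where Fisher's exact test gave p = 0.127. The 104 in other clusters went from 19.2 to 17.1%, with a difference in read share of -2.94 points (-4.00 to -1.88). The changes of these 2 sets differed by 19.2 points (15.3 to 23.1), a split that was made after the values by locus were seen. Set against the class I loci of the same cluster, the change of the 12 class II loci was higher by 18.8 points (14.7 to 22.8). The fewest shared CpGs among the 12, namely 23, were at OR2D2.

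Of the 67 loci of that cluster, 32 were higher and 33 lower, and no test of their order was made. From OR2AG2 to OR2D2, 7 neighbouring genes of families 2, 6 and 10 all had higher levels in dCas9+3A+HOXA5, 3 of the 5 called loci among them. Levels were higher at 87.3% of all genes. The class I loci just before this stretch, OR52B2 (17.8 points) and OR52W1 (12.2), had higher mean levels too, though neither passed the test. The run of higher levels was thus longer than the stretch. The other 2 called loci stood apart, OR52D1 between OR51I2 (-2.13 points) and OR52H1 (4.87), and OR10A6 between OR5P3 (5.33) and OR10A3 (-2.61 points). In the stretch, OR6A2, a receptor known for its response to aldehydes, went from 49.8% (62 of 136 reads) to 69.2% (78 of 109), OR10A4 from 36.4% (28 of 84) to 55.8% (48 of 83) and OR10A2 from 53.9% (123 of 220) to 69.7% (118 of 164), all of which passed the test with no minimum size. OR2D2 went from 48.0 to 63.8% and did not (adjusted p = 0.0218, Fisher's exact test). A second such stretch lay near the other end, within a longer run of higher levels. Beside it, OR52K1 (1.92 points), OR52M1 (8.84), OR51F1 (8.26) and OR52R1 (5.88) had higher mean levels too, but none passed the test. Their intervals of the difference in read share included 0, and that of OR52K1 was -1.30 points (-9.38 to 6.78). The stretch itself ran from OR52I2 to OR51E2. In it, OR52I1 and OR51D1 did not pass (adjusted p = 0.0281 and 0.0369, Fisher's exact test). There OR51E2, an OR gene also known for expression in prostate, went from 50.5% (192 of 376) to 62.5% (179 of 276), and its neighbour OR51E1 from 41.1% (132 of 319) to 54.8% (156 of 281). OR52I2 had the same direction but a mean level only 2.80 points higher (43.4 to 46.2%), beside 71 of 180 and 98 of 172 methylated reads. OR52I2 and OR52I1 are 97.3% identical in their coding sequence. Loci that overlap share part of these reads, so that neighbours are not independent. In the first stretch OR2AG1 and OR6A2 have 26 shared CpGs in common and OR10A2 and OR10A4 have 24, and in the second OR51D1 and OR51E1 have 52 and OR52I2 and OR52I1 have 24.

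**Figure D4:**
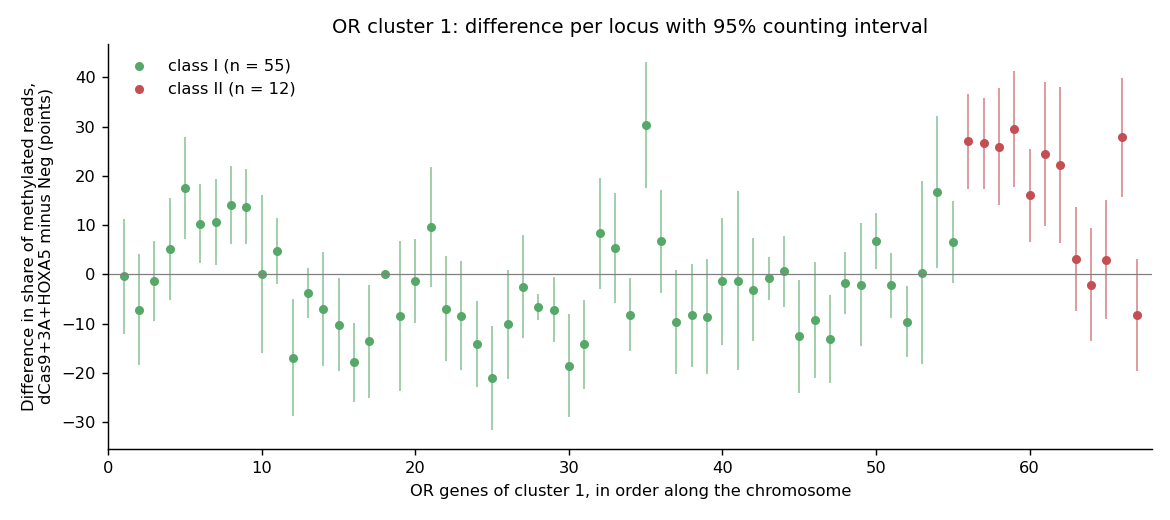
Difference in the share of methylated reads (percentage points, dCas9+3A+HOXA5 minus Neg), with its 95% interval for counting error, of the 67 OR loci of the cluster from OR52B4 to OR10A3, in chromosomal order, with class I and class II genes in different colours. The intervals of the runs from OR52I2 to OR51E2 and from OR2AG2 to OR2D2 lie above 0. Beside these runs, the values of OR52M1, OR51F1, OR52R1, OR52B2 and OR52W1 are also above 0. The lowest value, -21.0 points, is at OR52A1.

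Among families with more than 2 genes, family 2 was the highest, with 48.1% in Neg and 57.7% in dCas9+3A+HOXA5 (5 genes), followed in Neg by family 56 with 34.6 and 30.2% (6 genes). Family 6 went from 24.4 to 31.5% (5 genes), and family 10 from 29.9 to 31.3% (16 genes). The large family 5 (35 genes) had 14.1 and 12.3%, family 4 (25 genes) 23.8 and 20.3%, family 8 (23 genes) 18.1 and 15.9%, and family 9 (5 genes) 14.4 and 13.4%. Families 51 and 52 were close to each other, at 25.4 and 24.7% and at 25.1 and 24.96%. The read shares of families 2 and 6 were higher in dCas9+3A+HOXA5 by 12.9 points (8.74 to 17.1) and 12.1 points (6.70 to 17.6). Those of families 4, 5, 8 and 51 were lower by intervals that excluded 0. Of family 2, OR2AG1, OR2AG2 and OR2D2 belong to the stretch described above, as does OR6A2 of family 6. The intervals of OR2D3 (-7.38 to 13.8) and OR2AT4 (-3.26 to 9.61) included 0. In family 51, 552 of 1084 shared CpGs lay in the long locus of OR51B5 (-6.55 points, -9.25 to -3.86). OR9Q1 held 503 of the 638 shared CpGs of family 9. Families were not compared without these loci.

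Within the loci, the coding exons went from 22.8% in Neg to 20.2% in dCas9+3A+HOXA5, with a difference in read share of -4.24 points (interval -6.20 to -2.27). The 5 kb before the start went from 27.0 to 24.9% (-2.47 points, -4.21 to -0.73). The rest of the gene span had 21.8 and 22.3%, and the 5 kb after the end 22.7 and 22.8%, with intervals that included 0. That rest of the span includes the long spans of OR51B5 (202 kb) and OR9Q1 (158 kb), against a median span of 1.07 kb. It therefore does not stand for a typical OR gene. CpGs were also grouped in 1-kb bins by distance from the nearest OR start, without leaving out the spans of other OR genes. Of the 5 kb before the start, the read share differed by -8.40 points (-11.95 to -4.85) in the farthest kb. It differed by -4.98 points (-8.77 to -1.19) in the following kb and by 4.83 points (0.69 to 8.97) in the kb next to the start. The bins between these had intervals that included 0. The 250 bp on either side of the start had 21.0 and 23.6%, and their difference in read share had an interval from -5.09 to 3.55 points. Coding exons were better covered than the loci as a whole, with 57.6% of their reference CpGs read in both libraries.

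CpGs of the loci also differed by their sequence context. In OR loci, CpGs with A or T on both sides went from 12.4% in Neg to 14.1% in dCas9+3A+HOXA5, while those with G or C on both sides had 39.2 and 34.3%. Outside the OR loci the first kind went from 50.4 to 59.5% and the second from 65.5 to 68.2%. CpGs with no other CpG within 35 bp had 14.5 and 16.5% in OR loci, against 53.8 and 62.1% in the rest of the chromosome, and those with at least 3 others in that distance had 52 and 44.7%, against 59.3 and 61.1%. Thus isolated CpGs of OR loci had a read share higher by 2.09 points (interval 0.97 to 3.21) and the densest ones a difference in share of -6.30 points (-9.21 to -3.39) in dCas9+3A+HOXA5.

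**Figure D5:**
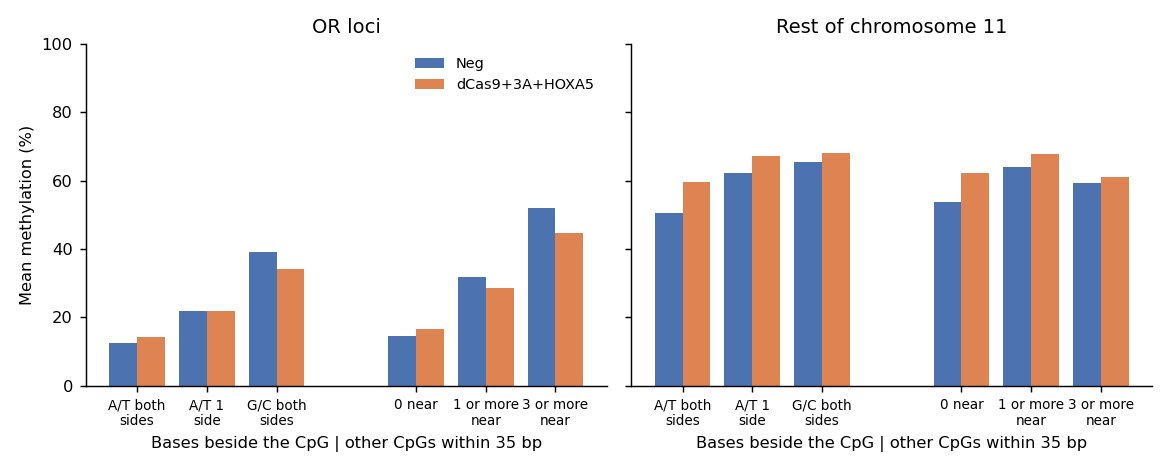
Mean methylation level (%) in Neg and in dCas9+3A+HOXA5 of CpGs grouped by the bases beside them and by the number of other CpGs within 35 bp (the class of 1 or more includes that of 3 or more), for OR loci and for the rest of chromosome 11. In OR loci the level goes from 14.5% with no neighbour to 52% with 3 or more neighbours in Neg.

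The libraries also differed in how often a CpG had both methylated and unmethylated reads. Over the 352 CpGs of OR loci with exactly 2 reads in each library, 14.5% were mixed in Neg and 5.40% in dCas9+3A+HOXA5, while 71.6 and 75.3% had no methylated read and 13.9 and 19.3% had only methylated reads. In the rest of chromosome 11 the mixed share was 21.2% and 9.14% by the same count. With exactly 3 reads (186 CpGs), 25.8 and 15.1% were mixed in OR loci. Whether reads that are copies of 1 fragment take part in this was not tested.

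The listed genes that act with the receptors were each more methylated than the median OR locus, with CNGA2 and ANO2 the lowest of them. Of 19 genes of the olfactory signalling list, 8 were higher in dCas9+3A+HOXA5 with no minimum size, a share close to the 41.0% of all loci, and 1 was lower, against 3.07% of all loci. Over the limit of 20 points 0 were called, against 1.92% of all loci called higher and 0.101% called lower. The median of the list was 74.6% for Neg and 79.1% for dCas9+3A+HOXA5, with a median difference of 4.58 points. GNAL, the G protein alpha subunit that couples to the receptors, went from 75.2 to 80.5%, ADCY3, the adenylyl cyclase that follows it, from 79.9 to 83.2%, and the cyclic nucleotide-gated channel subunits CNGA4 and CNGB1 from 55.3 to 60.0% and from 75.5 to 80.9%. LHX2 and EBF1, transcription factors of olfactory neurons, went from 72.6 to 79.1% and from 71.3 to 80.0%. The member that passed the test as lower was ANO2, the calcium-activated chloride channel of the sensory cilia, which fell from 40.8% (3291 of 7959 reads) to 27.7% (1787 of 6389). OMP, a marker of mature olfactory neurons on the same chromosome, had 81.6 and 83.5%, and CNGA2, on chromosome X, 25.2 and 20.3%, neither past the test. The trace amine receptors, a separate receptor family on chromosome 6 of which most members, though not TAAR1, are known from the olfactory epithelium, were at 55.8 to 82.7% in Neg, and all 6 were higher in dCas9+3A+HOXA5, as were 87.3% of all genes. TAAR2 was the 1 of the 6 called over 20 points (1.92% of all loci), with 62.9% (101 of 158 reads) and 89.9% (94 of 111). With TAAR6 and TAAR8, 3 of the 6 passed the test as higher with no minimum size (41.0% of all loci). TAAR2 did not pass over the gene span alone (26.3 points, adjusted p = 0.0293, Fisher's exact test).

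The depth was uneven between the libraries, with 89680453 reads over reference CpGs in Neg (mean 3.80 per listed CpG) and 46703202 in dCas9+3A+HOXA5 (mean 2.89). At HOXA5, the gene the guide targets, 20 of 417 reads over 108 CpGs of the gene body were methylated in Neg and 165 of 277 in dCas9+3A+HOXA5, in the direction of the labels. No replicate library was analysed here, so none of the differences above could be set against the spread between cultures.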

How the data were processed

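As the study's methods state, the authors aligned trimmed WGBS reads to hg19 with BSMAP (version 2.90 in the submitters' processing notes) and called methylation per CpG. The deposited files hold, per the file headers, the count of C reads and of C or T reads, an estimated count corrected for C-to-T variants, and the methylation fraction made from it. Their stated minimum of 5 reads is not applied in the files.

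Reference CpGs of GRCh37 with at least 1 read in both libraries were kept, and positions off a reference CpG were left out. Genes came from GENCODE release 44 on GRCh37. The level of a locus with at least 5 shared CpGs was the mean deposited fraction, expressed in percent. Reads were tested by Fisher's exact test (scipy 1.17.1) with Benjamini-Hochberg adjustment over all loci, and the code was tested on simulated data. Depth was 3.80 and 2.89 reads per listed CpG, and the 95% intervals cover counting error only.

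Named loci had at least 20 shared CpGs and were the 5 largest gains, 5 lowest differences, and 5 highest and 5 lowest Neg levels, with OR5M1 and the signalling list. Other loci were named after their values were seen. The members and lists were chosen with earlier results of these data known. Alternatives changed the minimum of reads or CpGs, a maximum depth, the extent of the locus, the summary and the test. Sequences of some stretches are not reported here.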

Additional observations from a re-analysis of the deposited data

How the results depend on the processing

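No paired analysis was possible because the groups hold 1 library each, and no library could be left out. The contrast of the OR loci with the rest of chromosome 11 kept its direction under every alternative run, whereas the small difference within the OR loci did not. That difference (-0.85 points) was -1.71 with at least 5 reads per CpG (read share 0.33 points higher, p = 0.868, Fisher's exact test, 15 loci left), 0.205 with 1 kb and 0.194 with 20 kb around the gene, and kept its value with p = 0.109 under the Cochran-Mantel-Haenszel test. The median difference of the OR loci (-1.60) was -2.58 with 5 reads, 0 with 1 kb and -0.589 with 20 kb.

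With 5 reads, 0 loci were called in either direction, over 20 points or at any size. With the read share as the level, 8 were called higher and 2 lower in place of 5 and 1. The gene span alone left 125 OR loci to test and gave 3 and 2, or 4 and 3 at any size in place of 13 and 10. With 1 kb, which left 150 OR loci, 5 were called higher and 2 lower, and 8 were higher and 5 lower at any size. With 20 kb and all 171 OR loci, 3 were called higher and 0 lower, and 15 were higher and 25 lower at any size. Shares of all loci under these alternatives are not given, so these counts have no background beside them. The Cochran-Mantel-Haenszel test left 5 lower at any size. Without genes at 90% identity to another OR gene, an alternative chosen after seeing the data like that without OR51B5 and OR9Q1, 2 were called higher and 8 higher at any size. The difference within the OR loci was then -1.31 points, and -0.40 without OR51B5 and OR9Q1 (p = 0.035, Fisher's exact test).

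Some single differences that were not called changed sign. Over the gene span OR52W1 differed by -5.56 points, OR52B6 by 1.94, OR9G1 by -1.31, GNG13 by 0.573 and RIC8B by -0.555. With 1 kb OR52W1 differed by -1.68, OR52B6 by 18.8 and RIC8B by -0.296, and with 20 kb OR52L1 by -0.0039, OR5L1 by -2.27 and GNG13 by 1.25. By read share OR4A16 differed by -0.291, GNG13 by 0.961, RIC8B by -2.97, ATF5 by -0.703 and KDM1A by -4.91. With 5 reads GNG13 differed by 0.333, REEP1 by -0.185 (called higher at any size otherwise) and RIC8B by -1.51. The cause of these changes was not tested. With a median of 3 and 2 reads per CpG, depth limits what a single locus can show.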
